A study of Mus musculus with 12 samples.

Results

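The 10 inflammatory and regulatory cytokine genes Il1a, Il1b, Il1rn, Il6, Il10, Il18, Tnf, Tgfb1, Tnfsf13b and Osm were followed across the 12 RNA-seq libraries of the series. They were taken by gene symbol from the table of 55573 genes, and each symbol matched 1 row. All libraries came from mouse bone marrow-derived macrophages (MΦs) sorted as CD11b+ F4/80+ cells, with 3 libraries in each of 4 groups. The wt MΦs and BMI1-KO MΦs were macrophages cultured alone, and the wt MM-MΦs and BMI1-KO MM-MΦs were macrophages co-cultured with 5TGM1, a mouse myeloma cell line. The design addresses how loss of BMI1, a Polycomb protein, and contact with myeloma cells alter these macrophages.

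The wt marrow came from BMI1fl/fl mice of C57BL/6 background and the BMI1-KO marrow from BMI1fl/fl Mx1-Cre mice. Both genotypes received poly-I:C, 5 doses of 15 mg/kg from 6 to 8 weeks of age, and marrow was taken 4 weeks after the last dose. Poly-I:C, an interferon inducer, switches on Mx1-Cre. The wt mice carried no Cre, so the deletion and the Cre transgene cannot be told apart. Adherent marrow cells were grown for 7 days in 5 ng/mL M-CSF, and MM-MΦs then spent another 48 hours with 5TGM1 cells. No source used here gives how long the MΦs cultured alone were kept, so added culture time and co-culture cannot be told apart. The labels number the libraries 1 to 3 within each group without saying whether a number is a mouse or a culture, and p-values measure the spread between these libraries, which may be technical.

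Macrophages release cytokines that drive or restrain inflammation. IL-1α, IL-1β and TNF are fast inflammatory signals induced through NF-κB, IL-18 is matured by the inflammasome as IL-1β is, and IL-1 receptor antagonist, the product of Il1rn, occupies the IL-1 receptor without signalling. IL-10 and TGF-β1 restrain macrophage activation, while IL-6, BAFF (Tnfsf13b) and oncostatin M are known in the myeloma marrow as growth or survival factors for plasma cells or as signals to stroma.

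Library totals ran from 9662279 to 11142768 counts, and 17611 to 18370 genes had a count. All 10 macrophage markers were detected in each group, and their summed level per library was 13080 to 20110 CPM (counts scaled to a common library size). Lyz2 held much of that sum, with a mean of 8482 CPM, beside 3045 for Csf1r and 1179 for Adgre1. Bmi1 had 251 to 364 counts in the wt libraries whereas none of the 6 BMI1-KO libraries lists any. The library totals implied by the deposited FPKM (counts scaled by gene length and library total) exceeded the summed counts by at least 512 to 734 in the BMI1-KO libraries and by 0 or fewer in the wt libraries, so these zeros were not used to check the labels. The 4 libraries numbered 3 stood apart within their groups. Their summed level of 7 proliferation markers was the highest in 4 of 4 groups, at 2396 and 2473 CPM in wt MΦs and wt MM-MΦs against 531 to 830 CPM in the other wt libraries, and at 890 and 959 CPM in the BMI1-KO groups against 297 to 756 CPM. Their mitochondrial share of counts was also the highest of each group, at 1.36 to 1.57% against 0.893 to 1.25% in the other libraries.

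Promoter sequences are shown for Il1a and Il1b, whose CPM spanned the widest range among the cytokine genes tested, and for Tnf, the most abundant per length. They are also shown for Il6, which was barely detected, and for Il1rn, whose counts differed most steadily between genotypes. The RefSeq table of GRCm38.p6 promoters matched 8 of the 10 genes with 11 start sites. Each line gives the 250 bases before the start site, 5′ to 3′, and capitals mark a match to a searched motif on either strand. The motifs were NF-κB (GGG, any pair of bases, TTTCC), AP-1 (TGANTCA), STAT (TTCNNNGAA), PU.1 (GAGGAAG), ISRE (TTTC, any pair of bases, TTTC) and the TATA box (TATAAA).
Il1a, chr2:129309973-129310222, minus strand: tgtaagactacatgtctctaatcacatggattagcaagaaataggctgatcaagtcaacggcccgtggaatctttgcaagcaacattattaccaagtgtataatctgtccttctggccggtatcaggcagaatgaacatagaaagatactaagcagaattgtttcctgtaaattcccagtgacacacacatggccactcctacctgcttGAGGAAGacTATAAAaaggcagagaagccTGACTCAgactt
Il1b, chr2:129371140-129371389, minus strand: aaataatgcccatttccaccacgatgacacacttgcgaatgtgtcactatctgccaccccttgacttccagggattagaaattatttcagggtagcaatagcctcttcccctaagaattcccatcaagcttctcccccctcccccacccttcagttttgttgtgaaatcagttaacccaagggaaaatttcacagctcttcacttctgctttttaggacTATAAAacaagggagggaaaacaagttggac
Tnf, chr17:35202008-35202257, minus strand: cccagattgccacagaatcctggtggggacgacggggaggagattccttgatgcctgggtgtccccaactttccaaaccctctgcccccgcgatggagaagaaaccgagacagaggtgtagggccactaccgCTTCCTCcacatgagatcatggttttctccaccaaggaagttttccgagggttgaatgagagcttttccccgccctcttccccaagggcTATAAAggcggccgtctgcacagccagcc
Il6, chr5:30012864-30013113, plus strand: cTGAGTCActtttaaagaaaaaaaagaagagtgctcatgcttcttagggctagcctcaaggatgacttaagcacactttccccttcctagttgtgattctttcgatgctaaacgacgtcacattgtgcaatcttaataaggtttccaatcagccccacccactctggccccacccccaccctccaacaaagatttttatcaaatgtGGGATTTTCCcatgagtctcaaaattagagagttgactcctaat
Il1rn, upstream start, chr2:24336610-24336859, plus strand: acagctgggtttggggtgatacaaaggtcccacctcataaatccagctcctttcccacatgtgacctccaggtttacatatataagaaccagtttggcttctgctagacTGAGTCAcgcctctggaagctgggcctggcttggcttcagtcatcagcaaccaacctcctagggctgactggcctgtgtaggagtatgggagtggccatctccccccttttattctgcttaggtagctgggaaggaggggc
Il1rn, downstream start, chr2:24345121-24345370, plus strand: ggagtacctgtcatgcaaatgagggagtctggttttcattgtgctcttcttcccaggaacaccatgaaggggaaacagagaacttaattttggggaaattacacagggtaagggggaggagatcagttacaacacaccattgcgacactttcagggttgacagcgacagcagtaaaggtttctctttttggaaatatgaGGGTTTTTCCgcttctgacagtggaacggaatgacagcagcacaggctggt

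The Il1a, Il1b and Tnf sequences each held TATAAA shortly before the start, first base at -32, -31 and -29. That motif occurred in 13.6% of 32851 promoters of 300 bases, counted from 250 before to 50 after the start, and the positions here refer to the start as 0. Il1a also held an AP-1 match from -12 and a PU.1 match from -41, which does not overlap the TATA box, and Tnf a PU.1 match from -118 on the other strand. AP-1 occurred in 7.81% of promoters and PU.1 in 13.6%. Il6 held GGGATTTTCC from -44 and an AP-1 match from -249. The upstream Il1rn start held an AP-1 match from -141. The downstream Il1rn start held GGGTTTTTCC from -51, and the NF-κB letters occurred in 1.63% of promoters. A further Il1rn start lay close by and read the same site after its start. No STAT match was found in these promoters (8.30% of all), and the ISRE letters (3.44% of all) were found at 1 Tnfsf13b start, beside an AP-1 match. Tgfb1 held none of the motifs and differed in composition, with 30 CpG and 77.0% GC against medians of 7.0 and 52.7% over all promoters. A match is a run of letters and not a measured binding site.

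Tnf and Tgfb1 were the most abundant transcripts per length. The mean deposited FPKM over the 12 libraries was 260.9 ± 113.6 (SD, n = 12) for Tnf and 89.3 ± 11.3 for Tgfb1, higher than 99.4% and 97.5% of the 14197 genes tested. Il10 followed at 29.9 ± 8.31 FPKM, then Osm at 23.4 ± 4.37, Il1b at 17.4 ± 13.4, Il1a at 12.1 ± 8.44, Il18 at 7.76 ± 1.72 and Il1rn at 4.45 ± 2.19. Tnfsf13b at 0.293 ± 0.156 and Il6 at 0.135 ± 0.124 FPKM closed the order. Tnf lay above Tgfb1 in 12 of 12 libraries although their ranges met. The ranges of neighbours overlapped at every step except between Tgfb1 and Il10 and between Il1rn and Tnfsf13b, while Il10 and Osm, with lowest values of 16.4 and 14.1 FPKM, lay wholly above Il18 and Il1rn, with highest values of 9.63 and 8.05. The plot of levels per length shows Il1a and Il1b as the genes with the widest scatter.

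**Figure D1:**
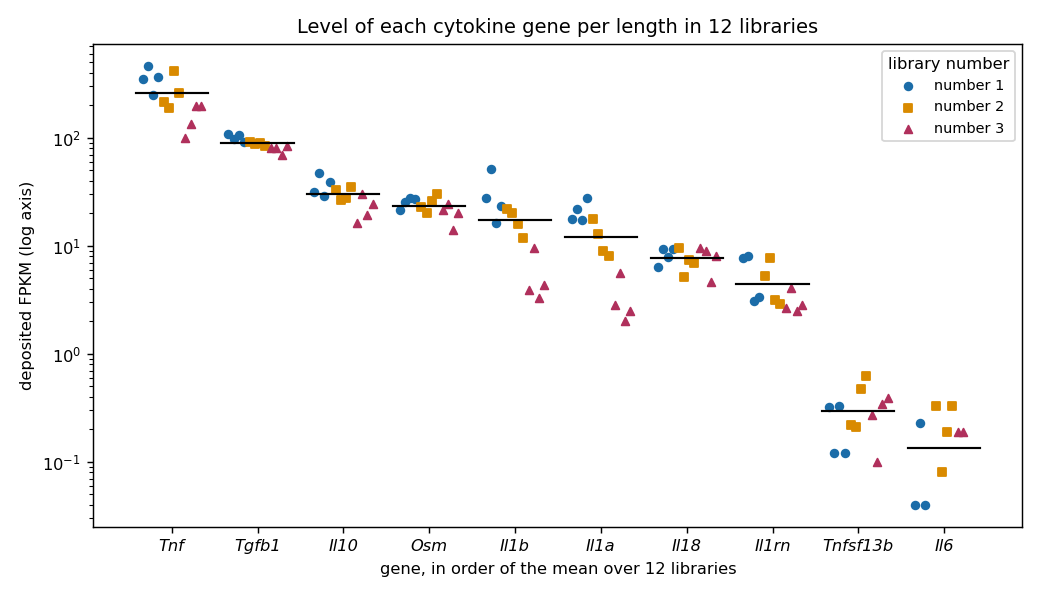
Deposited FPKM (log axis) of the 10 cytokine genes in 12 libraries, with points by library number and a bar at the mean over 12 libraries. Tnf and Tgfb1 lie highest, Il1a and Il1b fall lowest in the libraries numbered 3, and the 3 libraries with Il6 at 0 are not drawn.

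Il1a and Il1b, the genes of both IL-1 agonists, varied far more between library numbers than between groups. Il1a had 359, 346 and 60 counts in wt MΦs 1 to 3, 468, 250 and 119 in wt MM-MΦs, 329, 185 and 42 in BMI1-KO MΦs, and 539, 158 and 55 in BMI1-KO MM-MΦs. Il1b had 545, 411 and 81 counts in wt MΦs, 1056, 382 and 193 in wt MM-MΦs, 301, 319 and 67 in BMI1-KO MΦs, and 437, 221 and 92 in BMI1-KO MM-MΦs. In all 4 groups the library numbered 3 was the lowest for both genes and, in CPM, library 1 was the highest, and the groups overlapped widely. Library 1 held 4.48 to 11.7 times the CPM of library 3 for Il1a and 5.16 to 8.01 times for Il1b. Over all 12 libraries the highest CPM was 15.0 times the lowest for Il1a and 17.3 times for Il1b.

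Tnf, the gene of the main inflammatory TNF ligand, moved with library number as well. Its counts were 5939, 3469 and 1742 in wt MΦs, 8189, 3064 and 2325 in wt MM-MΦs, 3925, 7186 and 3401 in BMI1-KO MΦs, and 5872, 4245 and 3621 in BMI1-KO MM-MΦs. In CPM, library 3 was again the lowest in each group, whereas the highest library was number 1 in 3 groups and number 2 in BMI1-KO MΦs. Il1rn was the other gene with library 3 lowest in all 4 groups on the CPM scale. Of the 9 genes tested, 4 thus had library 3 lowest throughout, against 13.5% of the 14197 genes, and 3 (Il1a, Il1b and Tgfb1) had library 1 highest throughout, against 8.55%. The summed proliferation markers ran the other way, with library 1 lowest and library 3 highest in 4 of 4 groups. The summed levels of the cytokine receptor, processing, NF-κB and STAT3 lists described further on were highest in library 1 and lowest in library 3 in 4 of 4 groups. That pattern was not particular to these lists. The macrophage marker sum was also highest in library 1 in 4 of 4 groups, and lowest in library 3 in 2. The sums of other macrophage cytokines and of dendritic, T and NK, and stromal, endothelial and erythroid markers were lowest in library 3 in 4 of 4. The plot of Il1a, Il1b and Tnf beside the proliferation markers shows both values for each library. The part of cell division or of RNA quality in the cytokine levels was not tested. In bulk samples, fewer cells of a type and less RNA per cell cannot be told apart.

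**Figure D2:**
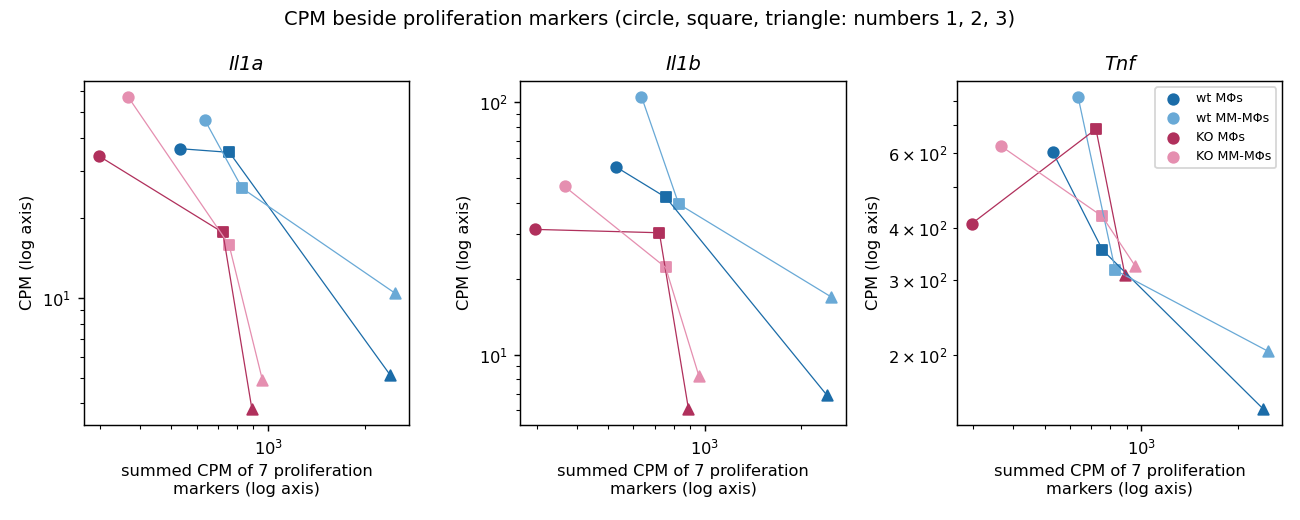
CPM of Il1a, Il1b and Tnf against the summed CPM of 7 proliferation markers in 12 libraries (both axes log), with lines joining the 3 libraries of a group. In each group the library numbered 3 (triangle) has the highest marker sum and the lowest CPM of all 3 genes.

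Il1rn, the gene of the IL-1 receptor antagonist, was the member whose libraries separated the genotypes in co-culture. The co-cultured wt libraries held 481, 427 and 238 counts, and the co-cultured BMI1-KO libraries 180, 159 and 174. Among macrophages cultured alone it had 443, 291 and 160 counts in wt MΦs and 164, 185 and 146 in BMI1-KO MΦs. Every BMI1-KO MM-MΦ library lay below every wt MM-MΦ library, while wt MΦ library 3 fell within the BMI1-KO MΦ range. The 6 BMI1-KO libraries were close together, and the wt libraries spread 3.30-fold in MΦs and 2.30-fold in MM-MΦs on the CPM scale. In co-culture the mean CPM was 37.7 ± 14.7 (SD, n = 3) for wt and 16.9 ± 1.96 for BMI1-KO. Among macrophages cultured alone it was 29.5 ± 15.7 for wt and 16 ± 2.39 for BMI1-KO.

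Set against its antagonist per length, Il1b exceeded Il1rn in all 12 libraries. The ratio of Il1b to Il1rn FPKM was 3.57, 4.1 and 1.47 in wt MΦs, 6.37, 2.6 and 2.35 in wt MM-MΦs, 5.32, 5.01 and 1.33 in BMI1-KO MΦs, and 7.04, 4.03 and 1.54 in BMI1-KO MM-MΦs. Its group means ran from 3.05 ± 1.39 in wt MΦs to 4.2 ± 2.76 in BMI1-KO MM-MΦs (SD, n = 3), a gap within the spread of each group. The Il1a ratio was below 1 only in the BMI1-KO libraries numbered 3, at 0.806 and 0.887, and reached 8.39 in BMI1-KO MM-MΦ library 1. All 4 groups overlapped in both ratios.

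Il18, whose protein is matured by the inflammasome as IL-1β is, had few counts. They were 68, 97 and 107 in wt MΦs, 103, 52 and 99 in wt MM-MΦs, 79, 80 and 51 in BMI1-KO MΦs, and 95, 71 and 92 in BMI1-KO MM-MΦs, with all groups overlapping. In CPM, library 3 was the lowest in only 1 group for Il18.

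Of the restraining cytokines, Tgfb1 was steady and Il10 varied about as much as Il1rn. Il10 had 424, 427 and 231 counts in wt MΦs, 667, 342 and 422 in wt MM-MΦs, 368, 381 and 269 in BMI1-KO MΦs, and 496, 455 and 356 in BMI1-KO MM-MΦs. Its groups overlapped, and its CPM spanned 3.38-fold over the 12 libraries. Tgfb1, which encodes the latent TGF-β1 precursor, had 5705, 4607 and 4371 counts in wt MΦs, 5326, 4418 and 4293 in wt MM-MΦs, 5173, 4763 and 3708 in BMI1-KO MΦs, and 4495, 4139 and 4757 in BMI1-KO MM-MΦs. It was the most even member, with a 1.72-fold span of CPM and overlapping groups.

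Among the factors tied to plasma cells, Il6 was at the edge of detection. Its counts were 1, 8 and 5 in wt MΦs, 6, 2 and 5 in wt MM-MΦs, 0, 5 and 0 in BMI1-KO MΦs, and 1, 8 and 0 in BMI1-KO MM-MΦs, or 41 in all. Where a library had 0 counts, up to 3 counts remain possible from counting error alone. Il6 did not pass the filter on low counts, and a difference between groups was not detectable at this depth. Tnfsf13b had 23, 15 and 20 counts in wt MΦs, 9, 14 and 7 in wt MM-MΦs, 22, 34 and 25 in BMI1-KO MΦs, and 8, 43 and 30 in BMI1-KO MM-MΦs. Each wt MM-MΦ library lay below each wt MΦ library, and BMI1-KO MM-MΦ library 1 stayed within the wt MM-MΦ range while the other 2 lay above it. Osm, an IL-6 family member, had 506, 510 and 531 counts in wt MΦs, 619, 451 and 595 in wt MM-MΦs, 611, 623 and 341 in BMI1-KO MΦs, and 602, 682 and 506 in BMI1-KO MM-MΦs. Its groups overlapped, with library 3 the lowest of 3 groups in CPM.

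**Figure D3:**
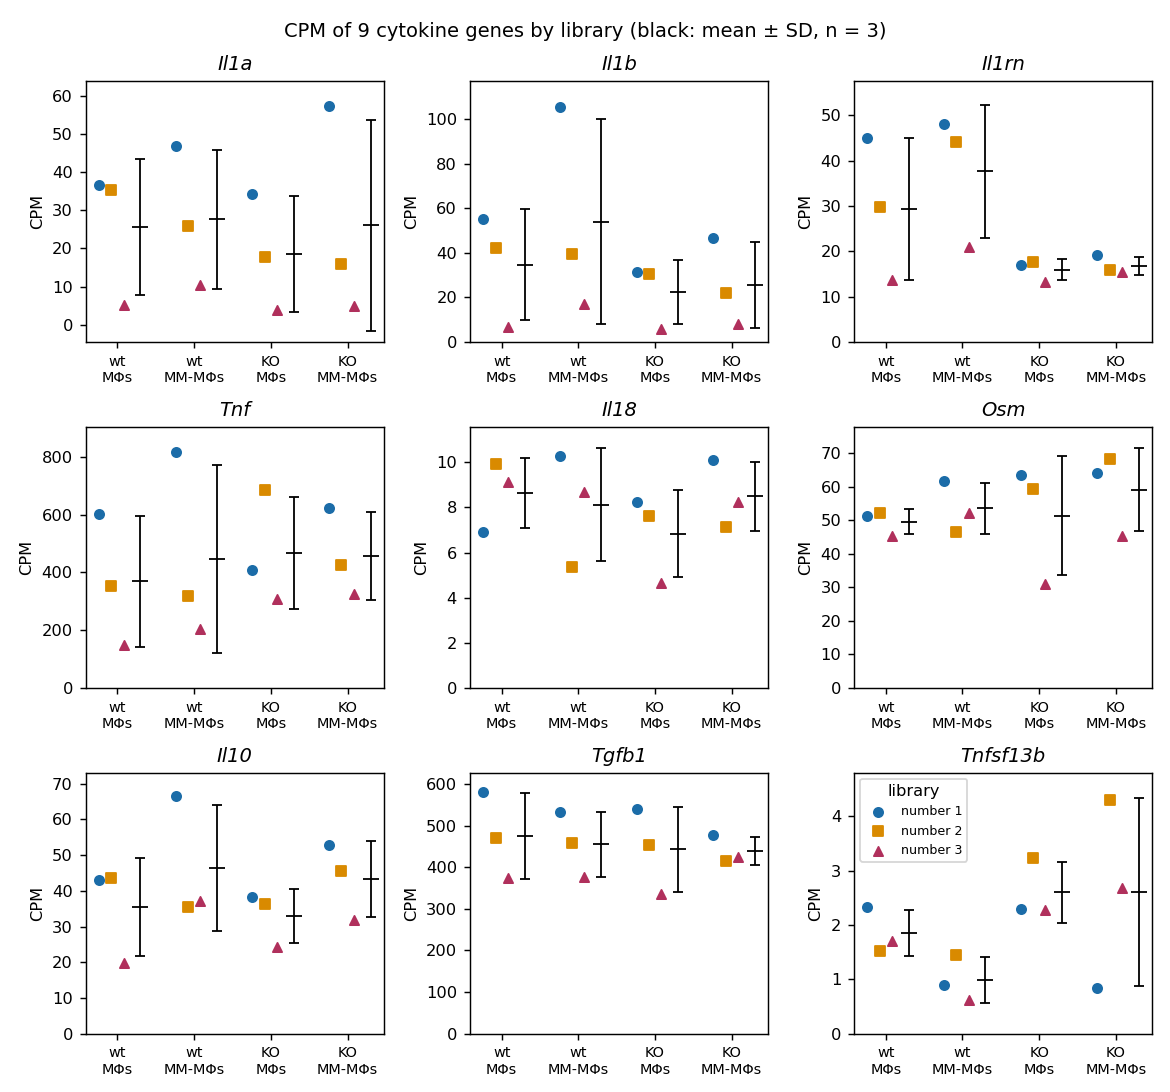
CPM of 9 cytokine genes in each library by group (KO, BMI1-KO), with symbols for the library number and black bars for the mean ± SD (n = 3). For Il1rn the 6 BMI1-KO points span 13.3 to 19.1 CPM and the 6 wt points 13.7 to 48.0 CPM. Its genotypes separate in co-culture and overlap among macrophages cultured alone, where wt MΦ library 3 lies among the BMI1-KO points.

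To ask whether BMI1 loss altered these genes in co-cultured macrophages, the co-cultured BMI1-KO and wt groups were compared. The edgeR quasi-likelihood test called 0 of the 9 cytokine genes tested at an adjusted p of 0.05, against 9 of 14197 genes (0.0634%). DESeq2 and limma-voom also called 0 of 9. At an unadjusted p of 0.05 edgeR named 2, Il1rn and Tnfsf13b, where 5.02% of all genes did so. The members' median log2 fold change was -0.05 (4 above 0 and 5 below), beside -0.01 over all genes.

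Il1rn had the largest decrease in that comparison, with a log2 fold change of -1.16 (SE 0.39, 95% confidence interval -2.02 to -0.29, edgeR adjusted p = 0.716), or 0.448-fold. It was the only member of the 9 whose libraries did not overlap, where 8.85% of all genes did not overlap and 4.46% were lower without overlap. The change stayed between -1.43 and -0.94 over 14 other settings, with adjusted p from 0.0508 to 0.9995. The lowest came from the block on library number across the groups, which called 1.27% of all genes and 0 of 9 members. Without the 4 libraries numbered 3 it was -1.38 (adjusted p = 0.12). The summed dendritic cell markers were at 229 to 748 CPM in wt MM-MΦs and 201 to 279 CPM in BMI1-KO MM-MΦs, with overlap. The difference lay mostly in Itgax (1024 to 5719 against 159 to 504 counts). Of the 3 dendritic markers tested, 2 were below 0 and 0 were called. Irf8, the most abundant over the 12 libraries, was above 0, at 0.23 (SE 0.19). Of that list, Siglech and Ccr7 had 0 counts in both groups, and all 7 proliferation markers had a fold change below 0 in BMI1-KO (median -0.80, 0 called). The part of either list in the Il1rn values was not tested.

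Tnfsf13b had the largest increase, 1.41 (SE 0.55, interval 0.21 to 2.61, edgeR adjusted p = 0.844), resting on 7 to 43 counts a library. Leaving out BMI1-KO MM-MΦ library 2 brought it down to 0.85. The summed neutrophil and mast cell markers peaked in that same library, at 205 CPM against 37.5 to 63.6 CPM in the other MM-MΦ libraries, with 596 counts of Ngp and 451 of Ltf, both neutrophil granule genes. Of the 6 of 15 such markers tested, 5 were above 0 between genotypes in co-culture (median 1.96). Of the 6, 3 had an unadjusted edgeR p under 0.05, against 5.02% of all genes, and 0 were called. Mmp8, the most abundant of the list, was below 0, at -0.34 (SE 0.33). BMI1-KO MM-MΦ library 3 held 30 counts of Tnfsf13b and the lowest marker sum of the MM-MΦ libraries, 37.5 CPM. Fcer1a and Mcpt4 had 0 counts in both groups, and the part of these cells in the Tnfsf13b values was not tested. Il1b was at -1.08 (SE 0.88, interval -3.02 to 0.86), and it was at -0.14 without wt MM-MΦ library 1 and at -1.83 without BMI1-KO MM-MΦ library 1. Tgfb1 had the narrowest interval, -0.51 to 0.41 around -0.05. For Il1a (-0.09, SE 0.97) and Tnf (0.04, SE 0.56) the intervals ran from -2.21 to 2.03 and from -1.20 to 1.27. Il10 (-0.10, SE 0.34), Il18 (0.06, SE 0.30) and Osm (0.14, SE 0.25) were close to 0.

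**Figure D4:**
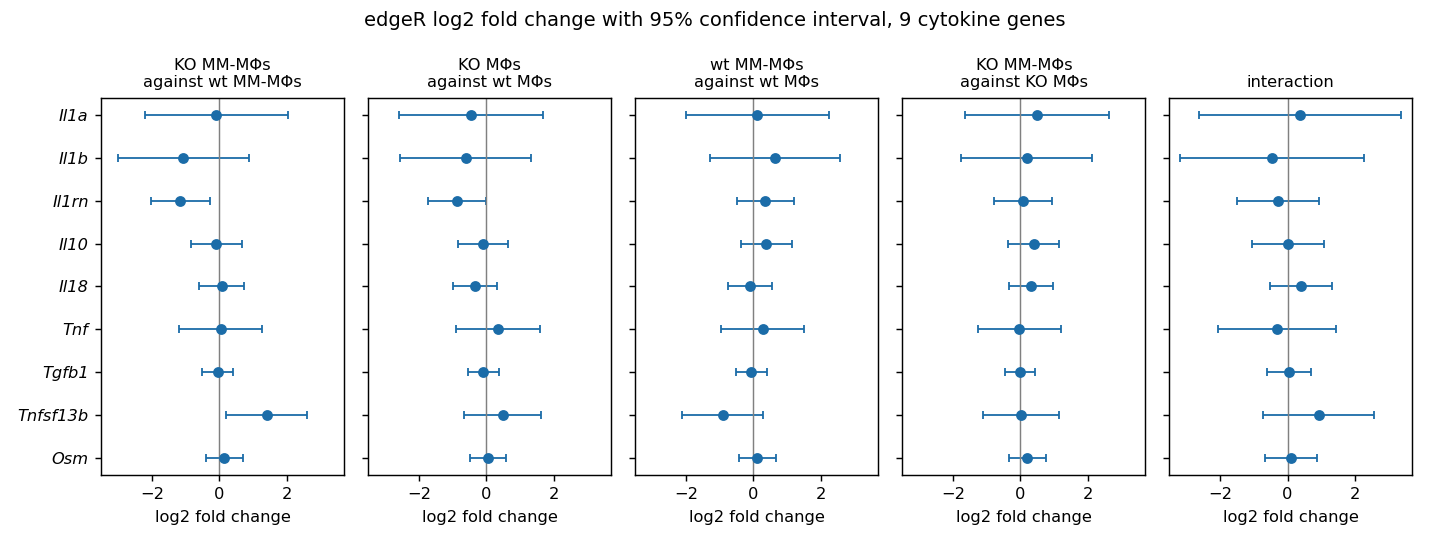
edgeR log2 fold changes with 95% confidence intervals for 9 cytokine genes in 4 comparisons and the interaction (KO, BMI1-KO). Intervals of Il1a, Il1b and Tnf are wide, and Il1rn (-2.02 to -0.29) and Tnfsf13b (0.21 to 2.61) lie to one side of 0 in the co-cultured genotype comparison before adjustment.

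The same question in macrophages cultured alone, BMI1-KO MΦs against wt MΦs, gave 0 of 9 called by edgeR, DESeq2 and limma-voom, against 7 of 14197 genes by edgeR (0.0493%). Il1rn was the only 1 of 9 at an unadjusted edgeR p of 0.05, where 5.77% of all genes stood. Its log2 fold change was -0.88 (SE 0.39, interval -1.74 to -0.02, adjusted p = 0.855), or 0.543-fold. No member had libraries without overlap, against 10.0% of all genes. The value moved from -0.44 to -1.22 over the 14 other settings, with adjusted p from 0.167 to 1, and the block on library number called 1.45% of all genes and 0 of 9 members. Il1b was at -0.62 (SE 0.88) and Il1a at -0.47 (SE 0.97), Tnf at 0.34 (SE 0.56) and Tnfsf13b at 0.48 (SE 0.52). Il18 (-0.34), Il10 (-0.10), Tgfb1 (-0.10) and Osm (0.05) differed less, with SE from 0.21 to 0.34. The median over the 9 genes was -0.10 (3 above 0 and 6 below), beside -0.01 over all genes.

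To ask what myeloma co-culture did in wt macrophages, wt MM-MΦs were compared with wt MΦs. edgeR called 0 of 9 members against 13 of 14197 genes (0.0916%). DESeq2, which called 0.409% of all genes, and limma-voom also had 0 of 9. At an unadjusted p of 0.05 edgeR had 0 of 9, where 1.99% of all genes stood. The log2 fold change was 0.64 (SE 0.88) for Il1b, 0.39 (SE 0.34) for Il10, 0.36 (SE 0.39) for Il1rn, 0.28 (SE 0.56) for Tnf, and 0.11 for Il1a (SE 0.97) and Osm (SE 0.25). It was -0.91 (SE 0.55) for Tnfsf13b, -0.09 (SE 0.30) for Il18 and -0.06 (SE 0.21) for Tgfb1. Tnfsf13b was the only member whose libraries did not overlap, 1 of 9 where 5.66% of all genes did not overlap and 2.62% were lower without overlap.

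Libraries of the same number and genotype deviated together in the 2 cultures, so each MM-MΦ library was also set against the MΦ library of its number. In wt, Il1rn was higher in 3 of 3 pairs, by 0.09, 0.57 and 0.61 on the log2 CPM scale, and Tnfsf13b lower in 3 of 3, by -1.21, -0.07 and -1.24. Such agreement upwards occurred in 15.0% of all genes and downwards in 13.5%. The second wt pair went against the other 2 for Il1a (-0.45 against 0.36 and 1.0), Il1b (-0.09 against 0.93 and 1.27), Il10 (-0.30 against 0.63 and 0.90), Tnf (-0.16 against 0.44 and 0.46) and Osm (-0.16 against 0.26 and 0.20). With the pair as a block, edgeR called 156 of 14197 genes (1.1%) and still 0 of 9 members. The blocked change was 0.66 (SE 0.20, adjusted p = 0.208) for Il1b, 0.41 (SE 0.14, adjusted p = 0.332) for Il1rn and 0.41 (SE 0.16, adjusted p = 0.518) for Il10.

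In BMI1-KO macrophages, co-culture likewise gave 0 of 9 members by edgeR, against 27 of 14197 genes (0.19%), and 0 by DESeq2 (0.641% of all genes) and limma-voom. The unadjusted edgeR p was under 0.05 for 0 of 9, and for 2.94% of all genes. Il1a was at 0.49 (SE 0.97), Il10 at 0.39 (SE 0.34), Il18 at 0.31 (SE 0.30), Osm at 0.21 (SE 0.25), Il1b at 0.18 (SE 0.88) and Il1rn at 0.08 (SE 0.39). Tnfsf13b (0.01, SE 0.51), Tgfb1 (-0.01, SE 0.21) and Tnf (-0.03, SE 0.56) were at 0 within their error. No member's libraries separated the 2 cultures, against 7.08% of all genes.

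Pair by pair in BMI1-KO, Il10 was higher in 3 of 3, by 0.46, 0.33 and 0.38, and so was Osm, by 0.01, 0.20 and 0.55, where 14.7% of all genes were higher in 3 of 3 and 15.3% lower. Il10 was the most even of these, with a mean difference of 0.39 ± 0.07 (SD, n = 3 pairs) against 0.41 ± 0.63 in wt. The second pair again ran against the other 2 for Il1a (-0.15), Il1b (-0.45), Il1rn (-0.14), Il18 (-0.10) and Tnf (-0.69). With the pair as a block, edgeR called 308 of 14197 genes (2.17%) and 0 of 9 members, and Il10 was at 0.39 (SE 0.16, adjusted p = 0.345).

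**Figure D5:**
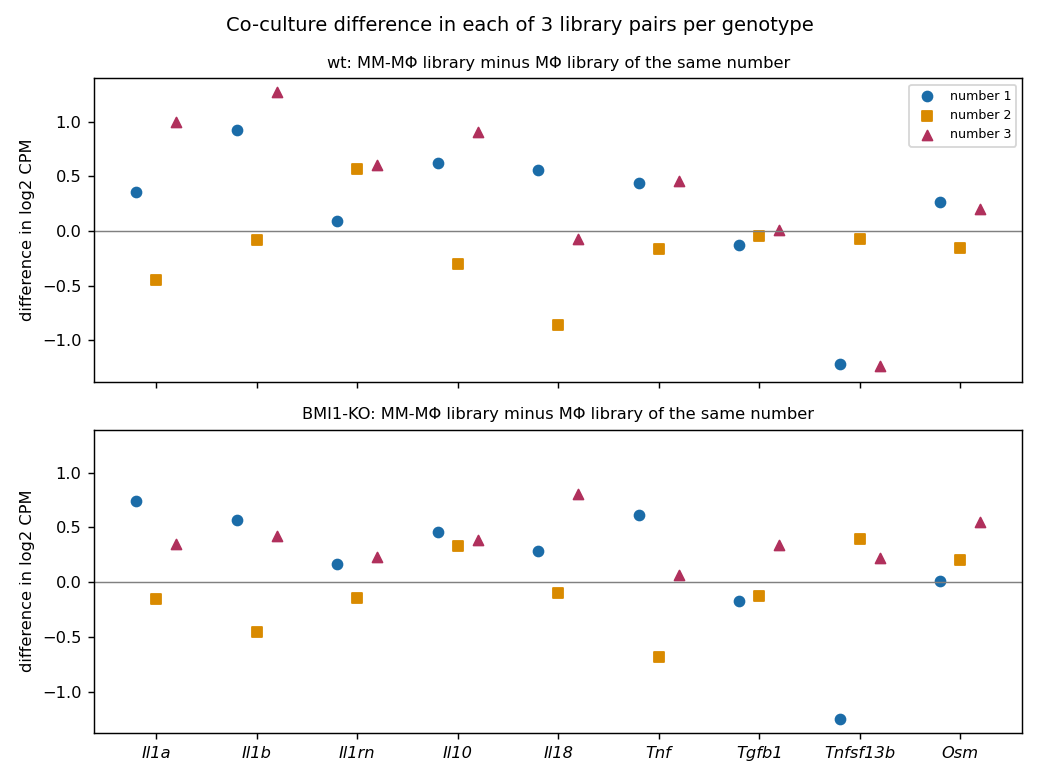
Difference in log2 CPM between the MM-MΦ and the MΦ library of the same number for 9 cytokine genes, in wt (top) and BMI1-KO (bottom), with 1 point for each of 3 pairs. In BMI1-KO, Il10 has 3 points close together at 0.46, 0.33 and 0.38, and in both genotypes the pair numbered 2 lies below 0 for Il1a, Il1b, Il18 and Tnf.

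Whether the response to co-culture depended on BMI1 was tested as the interaction of genotype and culture. edgeR called 0 of 9 members and 0 of 14197 genes (0.0%), and DESeq2 and limma-voom called 0 of 9. At an unadjusted p of 0.05 there were 0 of 9 members and 129 genes (0.909%). The interaction was 0.92 (SE 0.75) for Tnfsf13b, -0.46 (SE 1.24) for Il1b, 0.40 (SE 0.42) for Il18, 0.37 (SE 1.37) for Il1a, -0.31 (SE 0.80) for Tnf and -0.28 (SE 0.55) for Il1rn. Il10 (0.01, interval -1.06 to 1.07), Tgfb1 (0.05, interval -0.60 to 0.69) and Osm (0.10, interval -0.68 to 0.87) lay nearest to 0. The intervals of Il1a, -2.63 to 3.38, and Il1b, -3.18 to 2.27, leave room for large differences in either direction. With the pair as a block, edgeR called 1 gene (0.00704%), which was no member.

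The MM-MΦ libraries held more Igkc, the immunoglobulin kappa constant gene of plasma cells. It had 12, 157 and 31 counts in wt MΦs and 423, 1327 and 831 in wt MM-MΦs, and it had 8, 11 and 25 in BMI1-KO MΦs and 357, 586 and 1218 in BMI1-KO MM-MΦs. It was the only 1 of the 10 plasma and B cell markers tested that edgeR called higher, in BMI1-KO co-culture, at 5.60 (SE 0.95, adjusted p = 0.0466). With the pair as a block it was also called in wt co-culture, at 3.95 (SE 0.23, adjusted p = 2.02e-09). Ighg2b, an immunoglobulin heavy chain gene, had 0, 113 and 19 counts in wt MΦs and 424, 1170 and 716 in wt MM-MΦs, and it had 16, 0 and 9 in BMI1-KO MΦs and 385, 562 and 1180 in BMI1-KO MM-MΦs. Under the block, 3 of the 10 tested plasma and B cell markers were called higher in wt co-culture (Igkc, Ighg2b and Pou2af1) and 5 in BMI1-KO co-culture (these and Irf4 and Ighm). Without the block, 9 of the 10 were above 0 and 1 below in each co-culture comparison. Sdc1 was at -0.01 (SE 0.59) in wt and 0.16 (SE 0.61) in BMI1-KO. Prdm1 was at 0.19 (SE 0.38) and -0.13 (SE 0.39). Jchain had 2, 12 and 7 counts in wt MΦs and 5, 6 and 9 in wt MM-MΦs, and 0, 1 and 0 in BMI1-KO MΦs and 1, 0 and 7 in BMI1-KO MM-MΦs. Ighg2b, Pou2af1, Irf4, Ighm, Sdc1 and Jchain were named after their values were seen. The summed list of 17, whose most abundant genes Slamf7, Prdm1 and Xbp1 are also used by macrophages, was 347 to 746 CPM in wt MΦs, 551 to 1024 in wt MM-MΦs, 331 to 546 in BMI1-KO MΦs and 567 to 768 in BMI1-KO MM-MΦs. Of that list, Mzb1 and Ms4a1 were each at 0 in 3 of the 4 groups. The part of myeloma RNA in the co-culture values was not tested.

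The surroundings of these genes in their pathways were read from 5 lists. In none did edgeR call a gene in any of the 5 comparisons. Among 16 tested receptors and decoys, 10 were above 0 and 6 below between genotypes in co-culture (median 0.11). At an unadjusted edgeR p of 0.05 there were 2, where 5.02% of all genes stood. Il18rap, a subunit of the IL-18 receptor, was at 2.44 (SE 0.60, edgeR adjusted p = 0.352). It had 7, 3 and 6 counts in co-cultured wt and 10, 33 and 46 in co-cultured BMI1-KO libraries. Il18r1, of the same receptor and list, had 0 counts in wt MΦs, wt MM-MΦs and BMI1-KO MΦs. Of 15 genes for processing and release, Pycard, the inflammasome adaptor, was at -0.46 (SE 0.13, adjusted p = 0.504) in MM-MΦs and at -0.59 (SE 0.13, adjusted p = 0.299) in MΦs. Its counts were 286, 290 and 328 in wt MM-MΦs and 208, 194 and 244 in BMI1-KO MM-MΦs, without overlap. In that comparison 8.85% of all genes did not overlap in CPM, and 4.46% were lower without overlap. Ltbp2, of the latent TGF-β binding protein family, was at 1.44 (SE 0.37, adjusted p = 0.429) and 1.81 (SE 0.38, adjusted p = 0.230). DESeq2 called Il18rap and Ltbp2 in MM-MΦs and Ltbp2 and Pycard in MΦs, where it called 0.627% and 0.563% of all genes. Il18rap, Il18r1, Pycard and Ltbp2 were chosen after their values were seen.

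The NF-κB and STAT3 lists leaned upward in co-culture, and a link to the cytokine genes was not tested. All 25 NF-κB subunits and feedback targets tested were above 0 in wt MM-MΦs against wt MΦs, with a median of 0.25, where 50.7% of all genes were above 0 and their median was 0.00. In BMI1-KO co-culture 20 were above 0 and 5 below (median 0.14). The list of STAT3 feedback genes and targets of IL-6, IL-10 and OSM had 11 of 12 tested above 0 in wt (median 0.34) and 12 of 12 in BMI1-KO (median 0.46, where 48.7% of all genes were above 0). edgeR called 0 in both lists. At an unadjusted edgeR p of 0.05 there were 0 NF-κB genes. Of the STAT3 list 1 of 12 stood there in wt, with 1.99% of all genes, and 4 of 12 in BMI1-KO, with 2.94%. An upward lean in wt co-culture was not particular to these lists. Above 0 were 12 of 16 receptors and decoys, 12 of 15 processing genes and 7 of 7 proliferation markers. Their medians were 0.10, 0.09 and 0.08. Of the other macrophage cytokines 6 of 15 were above 0, and of the dendritic markers 0 of 3. All these medians describe the lists, whose genes are not independent.

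With the pair as a block, which the pairing of the libraries allows, edgeR called some genes of these lists, all higher in MM-MΦs. In wt, 3 of 25 NF-κB genes passed, where 1.1% of all genes did. They were the stress-response gene Ier3 at 0.47 (SE 0.09, adjusted p = 0.00506) and the chemokine genes Ccl4 at 0.59 (SE 0.14, adjusted p = 0.0411) and Cxcl2 at 0.44 (SE 0.11, adjusted p = 0.0444). In BMI1-KO, where 2.17% of all genes passed, 2 of 25 did so, Ccl3 at 0.58 (SE 0.14, adjusted p = 0.0234) and Ccl4 at 0.62 (SE 0.14, adjusted p = 0.0172). Of the STAT3 list, 2 of 12 passed in wt (1.1% of all genes) and 6 of 12 in BMI1-KO (2.17% of all genes). Under the same block 1 of 10 macrophage markers, the Fc receptor gene Fcgr1 at 1.05 (SE 0.11), passed in wt, and 3 passed in BMI1-KO, Fcgr1 at 1.15 (SE 0.11), Mrc1 at 0.40 (SE 0.08) and Cd14 at 0.38 (SE 0.10). The plasma and B cell markers passed in 3 of 10 and 5 of 10, as given above, and their part in these lists was not tested. Socs3, the feedback inhibitor of IL-6 signalling, rose by 0.97 (SE 0.18, adjusted p = 0.00481) in wt and by 0.90 (SE 0.18, adjusted p = 0.00651) in BMI1-KO. Its counts were 1464, 1085 and 470 in wt MΦs, 4016, 1468 and 927 in wt MM-MΦs, 1276, 1440 and 907 in BMI1-KO MΦs and 3825, 1559 and 1685 in BMI1-KO MM-MΦs. Each MM-MΦ library thus lay above the MΦ library of its number, most of all in number 1. Stat3 itself rose by 0.50 (SE 0.10, adjusted p = 0.0128) and 0.59 (SE 0.10, adjusted p = 0.00156). Il21r, Il4ra, Sbno2 and Nfil3 passed in BMI1-KO, at 0.66, 0.60, 0.36 and 0.61. Without the block, Socs3, Stat3, Il21r, Il4ra and Nfil3 stood at 1.02, 0.61, 0.67, 0.60 and 0.61 in BMI1-KO, with adjusted p from 0.565 to 0.9999. The genes named here were chosen after their values were seen.

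Other macrophage cytokines gave no call either. Of 25 listed, 15 passed the filter, and Csf2, Il33, Il12a, Il34 and Ifnb1 had 0 counts in all 4 groups. The most abundant were the growth factor genes Igf1 (11919 to 19415 counts), Vegfa (808 to 2077) and Hgf (738 to 1095). Between genotypes in co-culture, 11 of the 15 were above 0 (median 0.18), and in wt co-culture 6 were above 0 and 9 below (median -0.02).

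The members did not all vary alike over the 12 libraries, which share 3 library numbers. On log2 CPM, Pearson's r was 0.954 between Il1a and Il1b, 0.881 between Il1b and Il10, 0.753 between Il1b and Tnf and 0.799 between Il1b and Il1rn, but 0.070 between Il1rn and Il18 and -0.294 between Il1b and Tnfsf13b. The closest pattern was sought among the genes tested, leaving out the members and genes with Gm-number or Rik names. The closest was that of Lacc1 for Il1a (r = 0.987), Ppp1r15a for Il1b (0.982) and Evl for Il1rn (0.970). For Tnf, Tgfb1 and Il10 it was Zc3h12c (0.969), Tfe3 (0.967) and Pogz (0.963). For Tnfsf13b, Osm and Il18 it was Ltc4s (0.925), Nectin4 (0.923) and Lsm10 (0.873). These values describe likeness only.

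In GRCm38 the IL-1 genes share chromosome 2, with Il1a at chr2:129299610-129309972 and Il1b at chr2:129364570-129371139 on the minus strand and Il1rn at chr2:24336853-24351494 on the plus strand. Exons of Il1a share 222 bases with Gm14023 and those of Il1b share 25 bases with the antisense gene Il1bos, on the opposite strand in each case. These had 23 and 12 counts in all 12 libraries, beside 2910 for Il1a and 4105 for Il1b. No source used here states the strand setting of the counting, so reads from the shared bases cannot be told apart. The other 8 members share no exon bases with an annotated gene.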

How the data were processed

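Processed data of 12 mouse RNA-seq libraries were analysed, 3 in each of 4 groups taken from the labels. The authors deposited raw counts per gene (55573 genes) and FPKM per library with summed exon lengths. The submitters' processing notes name, for GRCm38, HISAT2 2.0.1 and HTSeq 0.6.1 after trimming with cutadapt 1.9.1, besides bcl2fastq 2.17.1.14 and DESeq2. No annotation release or strand setting is named in them. The deposited gene starts and ends matched GENCODE M21 for all 10 cytokine genes. The genes and gene lists were chosen with earlier results of these data known, and list genes outside the naming rule (genes past the edgeR threshold, and the 3 most abundant of each marker list) are marked in the text.

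Counts were tested with edgeR 4.0.16 (R 4.3.3), with TMM scaling and a quasi-likelihood test with 1 mean per group. filterByExpr (minimum count 10, minimum total 15, large group size 10, minimum proportion 0.7) kept 14197 genes. The Benjamini-Hochberg adjustment ran over all of these, and the threshold was 0.05. CPM are TMM-scaled, and log2 CPM used a prior count of 2. The FPKM are the authors' deposited values, used for levels between genes and, with 0.1 added, as an alternative scale. DESeq2 1.42.0 and limma-voom (limma 3.58.1) were alternatives, beside other filters, libraries left out and the library number as a block. The fit was tested on simulated counts of independent libraries. These held no effect of library number, so that test does not cover the pattern by number seen here.

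Deviations from the group mean correlated between the MΦ and MM-MΦ libraries of the same number and genotype, with Pearson's r across genes of 0.548, 0.361 and 0.725 for wt, and for BMI1-KO of 0.642, 0.181 and 0.598, each over 0.1. They were therefore treated as pairs for co-culture. This pairing comes from the data and the shared number and not from a label. Between genotypes in the same culture, r for number 2 fell to -0.03 in MΦs and 0.03 in MM-MΦs. For that reason numbers were not treated as pairs there. For numbers 1 and 3 it was 0.481 and 0.503 in MΦs and 0.497 and 0.508 in MM-MΦs. Libraries 1 and 3 thus deviated alike across genotypes too. The within-genotype r of these numbers cannot separate a pair from an effect of the number. Library totals of 9662279 to 11142768 counts set the counting error, and the floor of 3 counts covers that error only. The edgeR intervals also include the spread between libraries.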

Additional observations from a re-analysis of the deposited data

How the results depend on the processing

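Under every setting tried, 0 of 9 cytokine genes were called in all 5 comparisons. The number of genes called moved. For the genotypes in co-culture, the genotypes alone, wt co-culture and BMI1-KO co-culture it was 9, 7, 13 and 27, and became 89, 80, 58 and 91 with DESeq2, 21, 14, 22 and 42 with no filter, 4, 2, 6 and 0 with only the groups compared in the fit, and 181, 206, 156 and 308 with the replicate number as a block. limma-voom gave 2 in wt co-culture, leaving out the 4 libraries numbered 3 gave 1 in each co-culture comparison, and the block gave 1 for the interaction instead of 0. Leaving out 1 library at a time gave 3 to 6, 2 to 4, 0 to 3 and 4 to 23, and 0 for the interaction. Within genotype the block uses the library pairs. Between genotypes the samples share only a number, the block left Il1rn at an adjusted p of 0.0508 and Il1b at 0.0561 in co-culture, and no call on a member changed.

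Of 684 recomputed log2 fold changes of the 9 genes, 601 kept their direction and 83 did not, 70 of these with 1 library left out. None of these values was called, and the cause was not tested. Without the 4 libraries numbered 3, the sign turned for Il1a (0.0233) and Tnf (-0.10) between genotypes in co-culture, Tnfsf13b (-0.10) in BMI1-KO co-culture and Tgfb1 (-0.0635) in the interaction. With limma-voom it turned for Osm (-0.0221) in MΦs between genotypes, for Tnf (8e-04), Tgfb1 (0.01) and Tnfsf13b (-0.21) in BMI1-KO co-culture, and for Il1a (-0.0507) and Il10 (-0.0405) in the interaction. With the replicate block it turned for Tgfb1 (0.0109) and Tnfsf13b (-0.14) in BMI1-KO co-culture and Il10 (-0.0183) in the interaction. Leaving out 1 library turned further signs, and the ranges for the genotypes in co-culture were Il1a -1.42 to 0.52, Il10 -0.26 to 0.26, Il18 -0.16 to 0.27, Tnf -0.29 to 0.81 and Tgfb1 -0.15 to 0.0762. Those for the genotypes alone were Il1a -1.26 to 0.0268, Il10 -0.39 to 0.0777, Tnf -0.0332 to 0.90, Tgfb1 -0.26 to 0.0712 and Osm -0.14 to 0.31. In wt co-culture they were Il1a -0.50 to 0.50, Il1b -0.30 to 1.15, Il18 -0.30 to 0.14, Tnf -0.50 to 0.83, Tgfb1 -0.21 to 0.11 and Osm -0.0051 to 0.20. In BMI1-KO co-culture they were Il1a -0.84 to 1.28, Il1b -0.57 to 0.61, Il1rn -0.0345 to 0.16, Tnf -0.32 to 0.36, Tgfb1 -0.17 to 0.15, Tnfsf13b -0.54 to 0.42 and Osm -0.0499 to 0.39. For the interaction they were Il1a -0.95 to 1.16, Il1b -1.21 to 0.48, Il1rn -0.72 to 0.0733, Il10 -0.16 to 0.36, Tnf -0.86 to 0.47, Tgfb1 -0.12 to 0.21 and Osm -0.16 to 0.28.

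Levels and paired differences moved by less than 1 SD on the deposited FPKM scale. With no filter, Il6 could be fitted, at -0.45 (SE 1.36) between genotypes in co-culture, -1.43 (SE 1.42) between genotypes alone, -0.10 (SE 1.33) in wt co-culture, 0.87 (SE 1.45) in BMI1-KO co-culture and 0.98 (SE 1.95) in the interaction. Depth limits Il6 and Tnfsf13b, with 41 and 250 counts over 12 libraries.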
